A study of Mus musculus with 29 samples.

Results

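The 11 libraries described here came from young mouse cardiac fibroblasts cultured on 4 substrates, and they were chosen by label from the 29 libraries of the series. They allow a test of whether the change in gene expression with stiffness depended on the age of the matrix: the difference between StiffA and SoftA minus the difference between StiffY and SoftY. The series profiled primary fibroblasts of young mice (labelled YCF) and aged mice (labelled ACF), either freshly isolated or after 48 h on DECIPHER substrates, scaffolds that combine heart extracellular matrix with a hydrogel. The substrate names are read here as a gel that is soft or stiff and whose matrix came from hearts of young (Y) or aged (A) mice. Young cells on SoftY gave 2 libraries, and young cells on StiffY, SoftA and StiffA gave 3 libraries each. No group carried a transgene or drug according to the labels, and the sources used here do not give the ages of the mice, the stiffness values or the number of animals behind a library. Libraries of 1 group are labelled as biological replicates but are not tied to animals or cultures, and a p-value here therefore reflects only how these libraries varied, which may be partly technical. The 12 libraries of aged cells on the same substrates, 3 per substrate, served for comparison.

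Cardiac fibroblasts are the stromal cells that make and turn over the collagen matrix of the heart. On stiff surfaces they are known to spread, to form contractile stress fibres and to lose genes of the resident state, and growth on rigid surfaces drives part of this change through YAP and TAZ, coactivators that enter the nucleus under tension. Matrix proteins act on the same cells through integrins and through growth factors bound to the matrix, so that gel stiffness and matrix age can in principle act separately, jointly or through a shared limit.

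Library totals ran from 1192668 to 3080698 counts, so that a gene at 10 CPM (its share of the library total, scaled as described under the processing) rested on 11.9 to 30.8 counts. Transcripts of the mitochondrial genome made up 0.428% to 0.666% of the counts. The 10 fibroblast markers were all present and summed to between 24090 and 32050 CPM per library. Of the 5 neutrophil markers S100a8, S100a9, Cxcr2 and Retnlg were at 0 in all 11 libraries, and the 4 haemoglobin genes among the erythroid markers were at 0 as well. The 12 myeloid markers summed to 53.8 to 56.4 CPM on SoftY and 25.95 to 35.96 CPM on StiffY. They summed to 40.2 to 68.2 CPM on SoftA and 28.4 to 36.1 CPM on StiffA. Fcgr1 was at 0 throughout and Ptprc at most at 1.21 CPM. Lyz2 was the largest member in each library, at 13.3 to 45.2 CPM. The 5 epicardial markers summed to 242 to 275 CPM on SoftY and 158 to 163 CPM on StiffY. They summed to 223 to 241 CPM on SoftA and 171 to 195 CPM on StiffA. Aldh1a2 made up most of each sum, at 211 and 242 CPM on SoftY and 114 to 146 CPM on StiffA. Upk3b and Tbx18 went the other way, at 11.5 and 13.7 CPM and at 13.4 and 15.8 CPM on SoftY. On StiffA they were at 23.7 to 32.8 CPM and at 22.6 to 25.1 CPM. Wt1 and Msln stayed at or below 5.9 CPM. Within groups, 46% of the variance lay on 1 axis. At 1 end of it lay SoftA replicate 3, StiffA replicate 3 and SoftY replicate 2, at 0.626, 0.382 and 0.251. StiffY replicate 3 lay on the same side at 0.153, and each of these libraries carries the number 3 in its library name. Libraries with the number 1 lay on the other side, and those with the number 2 between -0.411 and 0.005. With 2 libraries on SoftY, their places are equal and opposite by construction. The first letter of the library names follows the substrate, so that a preparation that followed the letter and the substrate itself cannot be told apart, and in bulk RNA fewer cells of a type and less RNA per cell cannot be told apart.

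The interaction was called for 33 of the 12453 genes tested (0.265%) with edgeR's quasi-likelihood test at an adjusted p under 0.05, and 1159 genes had an unadjusted p under 0.05. It was positive for 32 genes (0.257%) and negative for Top2a alone (0.00803%). A positive value here means that stiffening changed the gene upwards on aged matrix relative to young matrix, on a log2 scale. In order of p the positive genes included Enpp2, Steap4, Col15a1, Cpxm1, Apoe, Gsn, Cnmd, Fbln1, Fgl2, Sparcl1, Atp1b2, Hp, Mmp12, Slc40a1, Bmper, Matn2, Serpina3f, Scd1, C3, Htra3, Pdgfra, Cilp, Anpep, Col6a1, Gfra1, Sned1, Col6a3, Pi16, Gm42946, Tnxb and Igf1. Igf1 was the last gene inside the threshold (adjusted p = 0.0445), and Car3 the first outside it (adjusted p = 0.0609), with a mean of 11.2 CPM on SoftY, 0.571 CPM on StiffA and 0 on the other substrates.

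In all 32 positive genes both SoftY libraries lay above all 9 other libraries, an order that 658 of all genes tested showed (5.28%). Their shapes differed: SoftY was the outlying substrate, as defined below, for 27 of them. For Igf1 the margin was narrow, with 191 CPM in 1 SoftY library and 189 CPM in 1 SoftA library. The lowest mean was on StiffY for 31 of the 32 genes and on StiffA for 1. The median change with stiffness over these genes was -1.68 on young matrix and -0.08 on aged matrix (log2), and the median change with matrix age was -1.33 on the soft gel and 0.36 on the stiff gel. Over all genes tested each of these medians lay between -0.01 and 0.00. StiffA differed from SoftY by a median of -1.41, compared with -1.68 for StiffY. These figures use the same means as the interaction test and describe its calls.

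The share of positive calls moved with the libraries and the fit. Without SoftY replicate 1 the interaction was called for 20 genes, all positive, and without SoftY replicate 2 for 22 genes, 20 of them positive. Without SoftA replicate 3 it was called for 50 genes (47 positive, 3 negative). Without the 3 libraries at 1 end of the within-group axis 270 genes were called, of which 174 were positive and 96 negative, and all 33 genes called above were among them. A fit that shared its estimate of spread with the 12 aged-cell libraries called 79 genes, 64 positive and 15 negative, with 32 of the 33 genes among them. Of the 15 negative genes in that fit, 8 had their lowest level on SoftY, apart from the other substrates, among them Anxa2 and Ankrd1. A fit with a term for the number in the library name called 162 genes, 98 positive and 64 negative, with all 33 genes among them. Over all 21 alternatives none of the 33 genes changed sign and 18 stayed called in each.

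**Figure D1:**
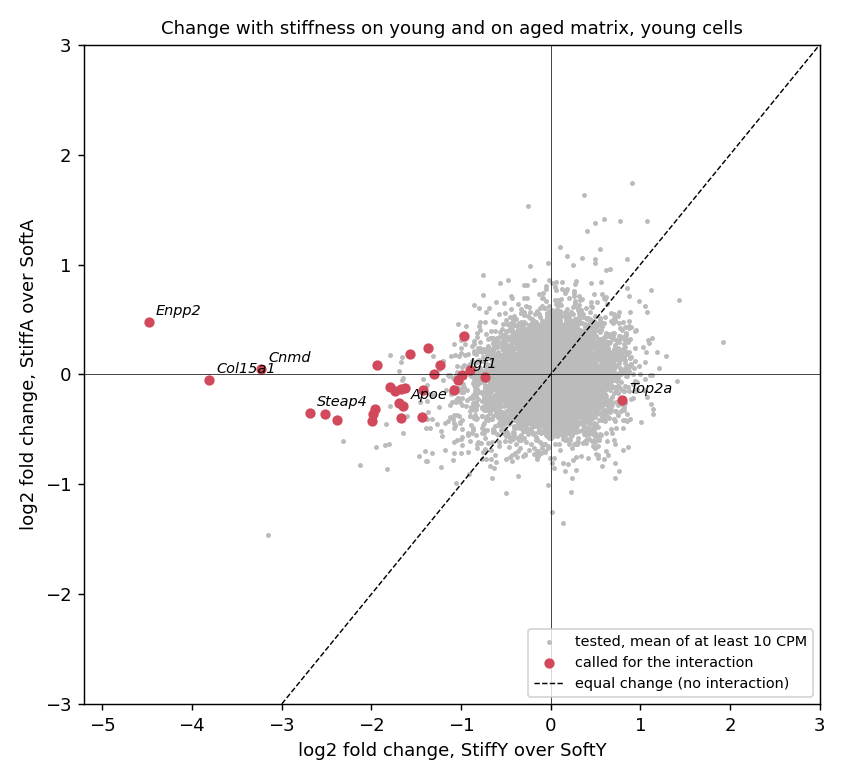
Change with stiffness on young matrix (x axis, log2 fold change of StiffY over SoftY) against the change on aged matrix (y axis, log2 fold change of StiffA over SoftA), 1 point per gene with a mean of at least 10 CPM, in young cells. Genes called for the interaction (red) lie far left of the dashed line of equal change and near 0 on the y axis, with Enpp2 at -4.48 and 0.48, and Top2a lies to its right at 0.79 and -0.24.

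Among called genes with a mean of at least 10 CPM, Enpp2, Col15a1, Cnmd and Steap4 had the largest interactions. Enpp2 (ENSMUSG00000022425, chr15:54702297-54816289 in mm39) encodes autotaxin, the secreted enzyme that makes lysophosphatidic acid. It was at 315 and 294 CPM on SoftY, at 12.1, 14.3 and 14.7 CPM on StiffY, at 34.9, 29.8 and 32.2 CPM on SoftA, and at 48.4, 48.3 and 37.3 CPM on StiffA. The 4 groups did not overlap: SoftY stood far above the rest, StiffY lay lowest, and on aged matrix the stiff gel lay slightly above the soft one. The interaction was 4.96 ± 0.22 (log2 ± SE, adjusted p = 8.14e-09), made of a fall by 4.48 with stiffness on young matrix and a change of 0.48 on aged matrix that did not pass the test (adjusted p = 0.585). Enpp2 was also higher on StiffA than on StiffY, by 1.72 ± 0.17 (adjusted p = 0.000396).

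Col15a1, the collagen XV chain of the basement membrane zone (chr4:47208161-47313168), was at 94.7 and 80.2 CPM on SoftY and at 5.42 to 7.24 CPM on StiffY. On SoftA it was at 12.9, 13.7 and 17.6 CPM and on StiffA at 14.8, 13.3 and 14.1 CPM. The groups on aged matrix overlapped each other and lay between the other 2 groups. Its interaction was 3.76 ± 0.31 (adjusted p = 1.43e-05). Cnmd, which encodes the anti-angiogenic glycoprotein chondromodulin, showed the same order, with 81.3 and 72.1 CPM on SoftY, 5.81 to 10.1 CPM on StiffY, 15.3 to 19.0 CPM on SoftA and 15.2 to 23.2 CPM on StiffA (interaction 3.28 ± 0.34, adjusted p = 0.000168). Steap4, a metalloreductase of the plasma membrane, was at 277 and 267 CPM on SoftY, 38.2 to 45.0 CPM on StiffY, 85.0 to 97.2 CPM on SoftA and 62.2 to 79.2 CPM on StiffA (2.33 ± 0.19, adjusted p = 1.43e-05). For Steap4 no 2 groups overlapped.

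Further genes of the matrix had smaller interactions of the same sign. Fbln1, the elastic-fibre and basement-membrane protein fibulin 1, was at 480 and 496 CPM on SoftY, 197, 175 and 172 CPM on StiffY, 259, 252 and 257 CPM on SoftA, and 225, 235 and 234 CPM on StiffA. The replicates of each group lay close together and SoftY was apart from all others (interaction 1.28 ± 0.14, adjusted p = 0.000255). Col6a1 and Col6a3 encode chains of collagen VI, the microfibrillar collagen that surrounds fibroblasts. Col6a1 had means of 1435 ± 17.8 CPM on SoftY (SD, n = 2), 866 ± 33.4 CPM on StiffY, 930 ± 47.0 CPM on SoftA and 918 ± 34.2 CPM on StiffA (n = 3 each), with an interaction of 0.71 ± 0.12 (adjusted p = 0.0146). Col6a3 was at 61.0 and 48.7 CPM on SoftY and between 15.1 and 20.3 CPM in the 9 other libraries (1.59 ± 0.30, adjusted p = 0.0388). Col6a2, the third chain, differed between substrates and was also highest on SoftY, and its interaction of 0.34 ± 0.16 did not pass the test (adjusted p = 0.528).

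Sparcl1, a matricellular relative of SPARC, was at 149 and 165 CPM on SoftY and between 35.6 and 64.5 CPM elsewhere (interaction 2.02 ± 0.23, adjusted p = 0.00039). Tnxb, which encodes tenascin X, a protein that spaces collagen fibrils, was at 106 and 103 CPM on SoftY and between 27.6 and 48.0 CPM elsewhere (1.503 ± 0.29, adjusted p = 0.0433). For both genes the 9 libraries outside SoftY overlapped across substrates, so that no order could be read among StiffY, SoftA and StiffA. The calls of Col6a1, Col6a3, Tnxb and Sned1 were lost in 7, 10, 8 and 9 of the 21 alternatives, while Enpp2, Col15a1, Cnmd, Steap4, Fbln1 and Sparcl1 were called in each.

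**Figure D2:**
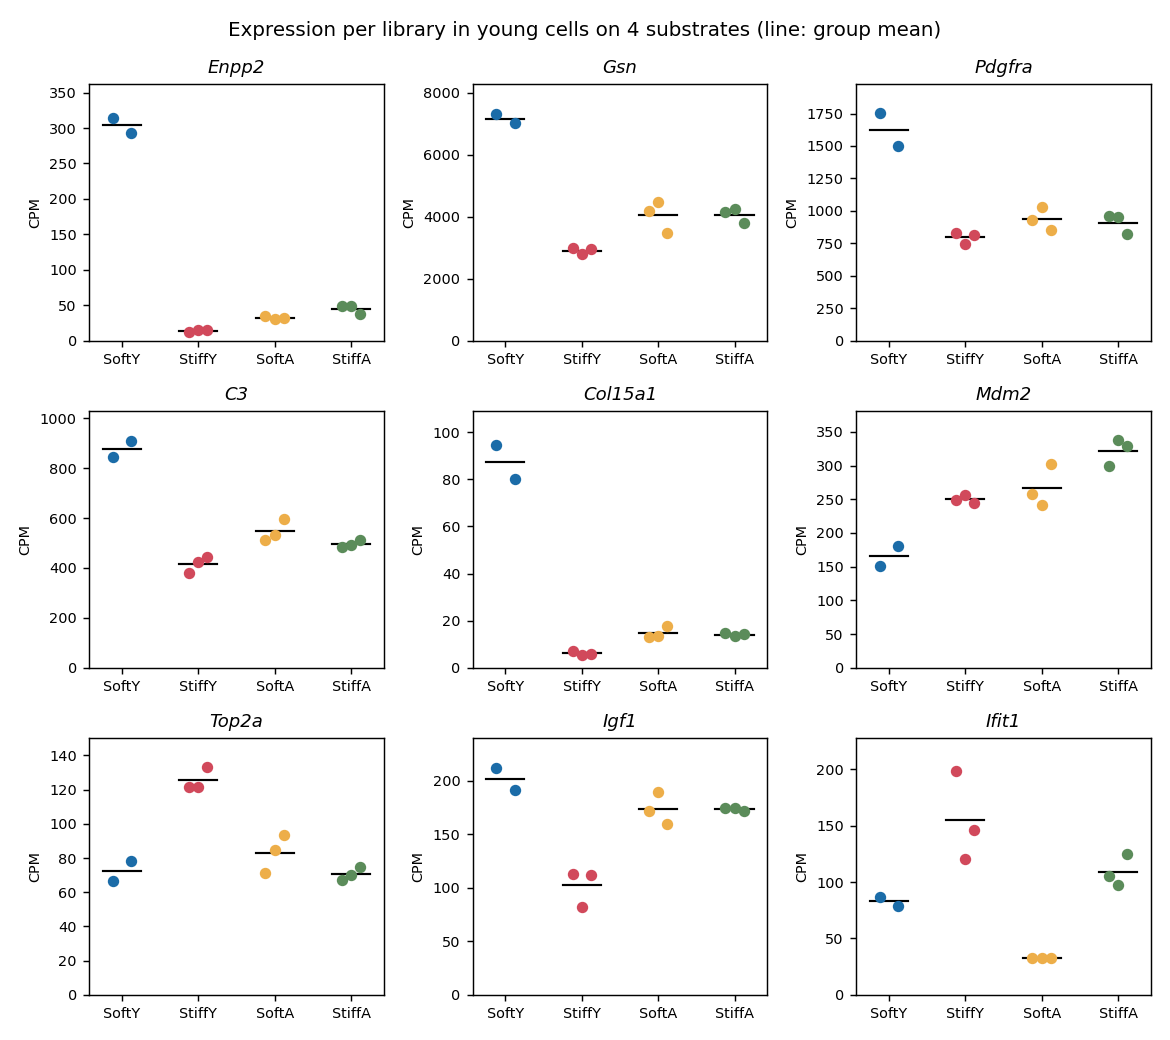
CPM of 9 genes in each library of young cells (1 point per library, line at the group mean, y axes from 0) on SoftY, StiffY, SoftA and StiffA. SoftY stands alone above the rest for Enpp2, Gsn, Pdgfra, C3 and Col15a1 and below the rest for Mdm2, StiffY stands alone high for Top2a and low for Igf1, and SoftA stands alone low for Ifit1 at 32.3 to 32.9 CPM.

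Genes of the resident fibroblast state fell from SoftY to the stiff gel on young matrix. Of 21 such genes, all tested, 13 fell with stiffness on young matrix and none rose. Of all genes 2.48% were called in this comparison, 1.67% lower. Of the 21 genes 6 were lower on SoftA than on SoftY (0.755% of all genes were). With stiffness on aged matrix none was called, where only 0.0642% of all genes were. The interaction was called for 3 members, Gsn, Pdgfra and Pi16 (0.265% of all genes were called). Its median over the list was 0.39, against 0.00 over all genes. Gsn encodes gelsolin, which severs actin filaments (chr2:35146392-35197905). It was at 7315 and 7007 CPM on SoftY, 2977, 2802 and 2941 CPM on StiffY, 4193, 4457 and 3477 CPM on SoftA, and 4137, 4233 and 3789 CPM on StiffA. SoftY was far above and StiffY below all others, and the 2 groups on aged matrix overlapped. The interaction of Gsn was 1.30 ± 0.13 (adjusted p = 9.98e-05), with 0.00 ± 0.09 for stiffness on aged matrix.

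Pdgfra, the PDGF receptor that marks fibroblasts in the heart, was at 1750 and 1497 CPM on SoftY, 831, 747 and 812 CPM on StiffY, 932, 1032 and 855 CPM on SoftA, and 958, 951 and 818 CPM on StiffA. The 3 lower groups overlapped or nearly touched, and SoftY was apart (interaction 0.98 ± 0.15, adjusted p = 0.00609). Pi16, a gene of adventitial fibroblasts, was at 16.1 and 13.7 CPM on SoftY, 2.01 to 4.65 CPM on StiffY, 3.80 to 6.62 CPM on SoftA and 6.56 to 9.95 CPM on StiffA (2.90 ± 0.55, adjusted p = 0.0389). At these levels a library held few reads of Pi16, and its call was lost in 8 of the 21 alternatives. Lum and Dcn, proteoglycans that organise collagen fibrils, fell with stiffness on young matrix (by 1.33 and by 0.72), and their interactions of 0.61 ± 0.24 and 0.31 ± 0.18 did not pass the test (adjusted p = 0.445 and 0.631).

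Complement and acute phase genes were mostly highest on SoftY. Of 16 genes 12 were tested. Of these 8 fell with stiffness on young matrix (1.67% of all genes did) and 6 with matrix age on the soft gel (0.755%). With stiffness on aged matrix none was called, where only 0.0642% of all genes were. 9 differed between substrates (2.54% of all genes did). Of these, 8 had SoftY alone at the top (among them Hp, C3, Serping1, C4b, Saa3, C1s1 and C1ra), against 33.9% of the 316 genes that differed. The interaction was called for Hp and C3 (0.265% of all genes were called), and the list's median interaction was 0.58. Hp, the haemoglobin-binding acute phase protein haptoglobin, was at 307 and 303 CPM on SoftY, 113, 117 and 108 CPM on StiffY, 175, 165 and 164 CPM on SoftA, and 122, 128 and 133 CPM on StiffA. No groups overlapped, and the order SoftY, SoftA, StiffA, StiffY held in every library (interaction 1.04 ± 0.15, adjusted p = 0.00327). C3, the central complement protein, was at 845 and 910 CPM on SoftY, 380 to 445 CPM on StiffY, 512 to 596 CPM on SoftA and 482 to 512 CPM on StiffA (0.93 ± 0.14, adjusted p = 0.00599).

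Genes that macrophages also express were among those called. Apoe, an apolipoprotein of lipid transport, was at 2648 and 2633 CPM on SoftY, 833 to 867 CPM on StiffY, 993 to 1184 CPM on SoftA and 842 to 915 CPM on StiffA (interaction 1.36 ± 0.13, adjusted p = 5.79e-05). Mmp12, the macrophage elastase, was at 88.2 and 80.7 CPM on SoftY and between 29.6 and 43.1 CPM in the other libraries (1.60 ± 0.23, adjusted p = 0.00327). Slc40a1, the iron exporter ferroportin, was at 162 and 138 CPM on SoftY, 40.9 to 45.7 CPM on StiffY, 52.1 to 79.5 CPM on SoftA and 54.4 to 70.6 CPM on StiffA (1.68 ± 0.24, adjusted p = 0.00458). The summed myeloid markers were higher on SoftY than on StiffY or StiffA but overlapped with SoftA, and Csf1r, Adgre1 and Ptprc stayed at or below 5.36, 4.27 and 1.21 CPM. The part of myeloid RNA in these 3 results was not tested.

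Atp1b2 encodes a beta subunit of the sodium-potassium pump. It was at 147 and 124 CPM on SoftY and between 22.5 and 44.7 CPM elsewhere (interaction 2.16 ± 0.25, adjusted p = 0.000416). Gfra1, the receptor subunit for the neurotrophic factor GDNF, was at 80.0 and 71.7 CPM on SoftY, 17.2 to 22.1 CPM on StiffY, 30.2 to 45.2 CPM on SoftA and 26.6 to 36.5 CPM on StiffA (1.64 ± 0.28, adjusted p = 0.0173). Anpep, the surface peptidase CD13, was at 201 and 205 CPM on SoftY and between 51.3 and 109 CPM elsewhere, with a wide spread on SoftA (1.76 ± 0.29, adjusted p = 0.0117). The calls of Gfra1 and Anpep were lost in 5 and 4 of the 21 alternatives. Serpina3f, one of a cluster of closely related protease inhibitors among which reads may be shared, was at 103 and 100 CPM on SoftY and between 15.5 and 37.5 CPM elsewhere (1.97 ± 0.30, adjusted p = 0.00599).

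Igf1 and Top2a were called with StiffY, not SoftY, as the outlying substrate. Igf1, the growth factor that fibroblasts secrete to nearby muscle cells (chr10:87694127-87772905), was at 212 and 191 CPM on SoftY, 113, 81.7 and 112 CPM on StiffY, 172, 189 and 160 CPM on SoftA, and 174, 174 and 171 CPM on StiffA. StiffY lay below the 8 other libraries, and the other groups differed little. Its interaction was 0.98 ± 0.19 (adjusted p = 0.0445), stiffness lowered it on young matrix by 0.99 ± 0.14, and on aged matrix the difference was -0.01 ± 0.13. Top2a encodes the topoisomerase that untangles DNA in dividing cells (chr11:98883769-98915016). It was at 66.5 and 78.1 CPM on SoftY, 121, 122 and 133 CPM on StiffY, 71.4, 84.8 and 93.4 CPM on SoftA, and 67.3, 70.1 and 74.7 CPM on StiffA. StiffY lay above every other library, the other 3 groups overlapped, and the interaction was -1.03 ± 0.19 (adjusted p = 0.0388). Each call was lost in 9 of the 21 alternatives, namely without either SoftY library, without any 1 of the StiffY or StiffA libraries, and without SoftA replicate 2 (Top2a) or SoftA replicate 1 (Igf1).

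The shapes of the 4 means were then sorted without reference to the interaction test, over the 316 genes (2.54%) that differed between any substrates. A substrate counted as outlying where the largest of the 3 gaps between the ordered log2 means took at least 0.5 of their range and set that substrate apart. An outlying SoftY says that the 3 other means lay closer to each other than to SoftY, not that they were equal: for Enpp2 they differed, and Mmp3 and Pkm, which had SoftY outlying, were also within the margin for additivity described below. SoftY was outlying in 177 of the 316 genes (56%), high in 107 and low in 70, compared with 23.6% of all genes tested. Among the 33 genes called for the interaction 27 (81.8%) had SoftY outlying high and none had it outlying low. StiffY was outlying in 21 genes (12 high, 9 low), SoftA in 20 (1 high, 19 low) and StiffA in 3 (2 high, 1 low).

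The means split by stiffness in 19 genes and by matrix in 14, and no gene showed the crossed shape, with SoftY and StiffA on 1 side and StiffY and SoftA on the other, which 5.73% of all genes tested did. In the other 62 genes the means were graded, with stiffness effects of 1 sign in 49 and of opposite signs in 13. The SoftY mean rested on 2 libraries and the others on 3, and over all genes tested SoftY was also outlying more often than any other substrate. With a gap of 0.4 or 0.6 of the range in place of 0.5, SoftY was outlying in 30 or 25 of the 33 genes. The count of 316 fell to 135 without SoftY replicate 1, to 185 without SoftY replicate 2 and to 199 without StiffY replicate 2, and it rose to 550 without SoftA replicate 3.

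**Figure D3:**
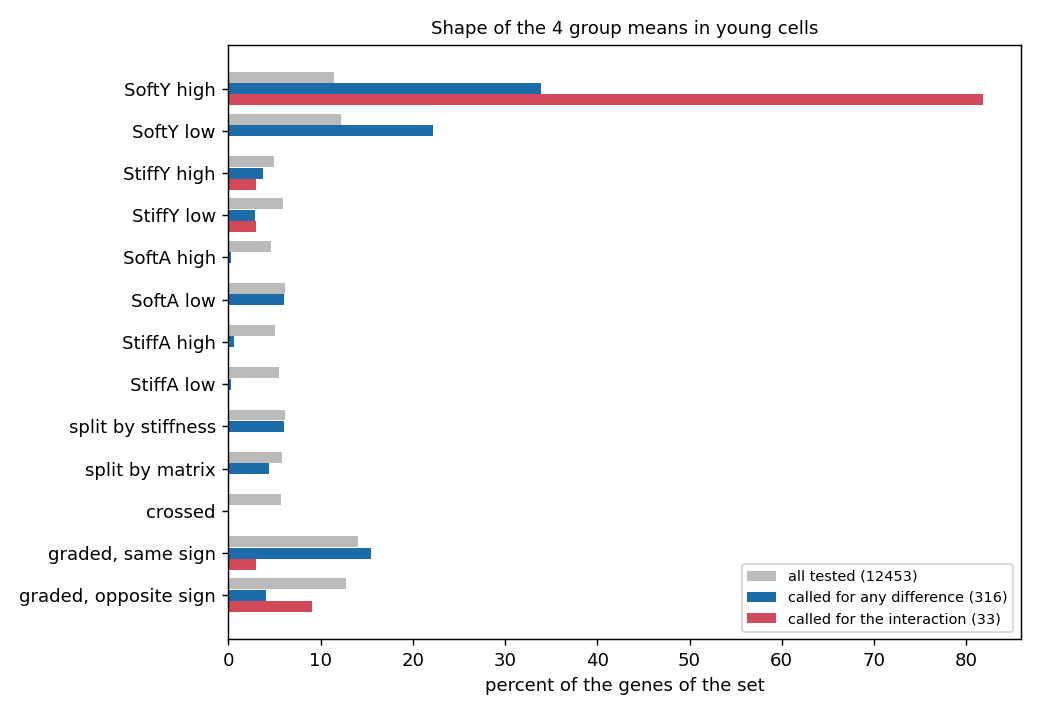
Percent of genes (x axis) with each shape of the 4 group means (y axis) among all genes tested (grey, 12453), genes called for any substrate difference (blue, 316) and genes called for the interaction (red, 33), in young cells. SoftY high takes 11.4%, 33.9% and 81.8% of the 3 sets, and the crossed shape 5.73%, 0% and 0%.

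Genes that were lowest on SoftY included p53 targets, and none of them was called for the interaction. Of 20 tested genes of p53 response and growth arrest, 7 rose with stiffness on young matrix (0.811% of all genes did) and 5 rose with matrix age on the soft gel (0.747%), with none lower in either, and 10 were higher on StiffA than on SoftY (3.13% of all genes were called there, 1.65% higher and 1.49% lower). The list's medians were 0.42, 0.41 and 0.57. SoftY was outlying low in 11 of the 20 genes, against 12.2% of all genes tested. Of these, 8 also differed between any substrates (2.54% of all genes did): Btg2, Gdf15, Ccng1, Zmat3, Eda2r, Mdm2, Cdkn1a and Plk2. Mdm2, the ubiquitin ligase that p53 induces and that degrades p53, was at 151 and 181 CPM on SoftY, 249, 257 and 245 CPM on StiffY, 257, 242 and 302 CPM on SoftA, and 299, 337 and 329 CPM on StiffA. SoftY was below all others, and StiffA was highest with an overlap with 1 SoftA library. Mdm2 rose by 0.60 ± 0.13 with stiffness on young matrix (adjusted p = 0.0194) and by 0.69 ± 0.13 with matrix age on the soft gel (adjusted p = 0.0125), and its interaction was -0.33 ± 0.17 (adjusted p = 0.584). Cdkn1a, the cell cycle inhibitor p21, was at 278 and 247 CPM on SoftY, 364 to 410 CPM on StiffY, 334 to 411 CPM on SoftA and 414 to 507 CPM on StiffA (-0.29 ± 0.17, adjusted p = 0.641).

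Genes of the cytoskeleton and of YAP and TAZ leaned the same way with few calls. Of 17 contractile genes tested 13 had their lowest mean on SoftY (76.5%, against 31.4% of all genes). With stiffness on young matrix 4 rose (0.811% of all genes did), and none of the 17 passed for any substrate difference. The median interaction was -0.34 with none called. Acta2, the smooth muscle actin of myofibroblasts, was at 733 and 882 CPM on SoftY, 1265, 1338 and 1207 CPM on StiffY, 1146, 1014 and 1551 CPM on SoftA, and 1104, 1132 and 1378 CPM on StiffA. SoftY lay below all others and the other 3 groups overlapped. Acta2 rose with stiffness on young matrix by 0.65 ± 0.16 (adjusted p = 0.0386), and its interaction of -0.69 ± 0.21 did not pass the test (adjusted p = 0.29). In 3 of the 21 alternatives this interaction of Acta2 did pass.

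Of 20 tested YAP and TAZ targets, 6 rose with stiffness on young matrix (0.811% of all genes did), 2 rose with matrix age on the soft gel (0.747%), and none was called for the interaction. Ccn2, a matricellular YAP target, was at 55.7 and 55.1 CPM on SoftY, 98.1, 105 and 98.9 CPM on StiffY, 66.8, 85.2 and 88.1 CPM on SoftA, and 92.7, 88.2 and 73.0 CPM on StiffA. SoftY was lowest and StiffY highest, without overlap with the rest. The change with stiffness on young matrix was 0.86 ± 0.15 (adjusted p = 0.00591) and the interaction -0.79 ± 0.21 (adjusted p = 0.19). Ankrd1, a mechanosensitive ankyrin repeat protein, rose by 0.88 ± 0.14 with stiffness on young matrix (adjusted p = 0.0024) and by 0.67 ± 0.14 with matrix age on the soft gel (adjusted p = 0.0265), with an interaction of -0.74 ± 0.19 (adjusted p = 0.176). Col1a1 and Postn, a fibrillar collagen chain and a matricellular protein of activated fibroblasts, did not pass for any substrate difference (adjusted p = 0.491 and 0.31), with interactions of 0.16 ± 0.11 and 0.46 ± 0.30.

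All 23 tested genes of sterol synthesis had their lowest mean on SoftY, against 31.4% of all genes. Few of them were called singly: 1 rose with stiffness on young matrix (0.811% of all genes did), 3 rose with matrix age on the soft gel (0.747%), and 8 were higher on StiffA than on SoftY (1.65%). Their median change was 0.30 on StiffY, 0.53 on SoftA and 0.52 on StiffA, each relative to SoftY, and the median interaction was -0.33 with none called. Sqle, the squalene epoxidase of sterol synthesis, was at 226 and 213 CPM on SoftY, 263, 269 and 230 CPM on StiffY, 274, 285 and 247 CPM on SoftA, and 345, 327 and 319 CPM on StiffA. SoftY lay lowest and StiffA highest without overlap with the others, and StiffA differed from SoftY by 0.59 ± 0.11 (adjusted p = 0.00923). The interaction of Sqle was 0.08 ± 0.15 (adjusted p = 0.908).

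**Figure D4:**
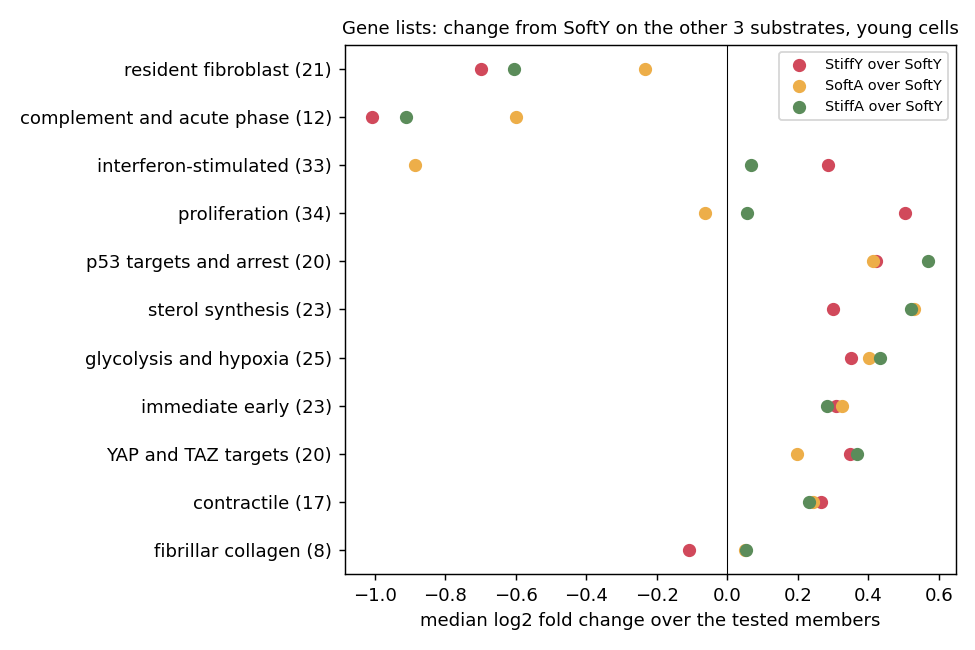
Median log2 fold change over the tested members of 11 gene lists (x axis; number of tested members in brackets) on StiffY, SoftA and StiffA relative to SoftY, in young cells. Complement genes stand at -1.01, -0.60 and -0.91, sterol genes at 0.30, 0.53 and 0.52, interferon-stimulated genes apart on SoftA alone at -0.89, and proliferation genes apart on StiffY alone at 0.50.

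Proliferation genes peaked on StiffY. Of 34 genes tested, 32 had their highest mean there (22.2% of all genes did). With stiffness on young matrix 7 rose (0.811% of all genes did). With stiffness on aged matrix none was called, where only 0.0642% of all genes were. The median change was 0.50 and 0.11 in these 2 comparisons. Among the 316 genes that differed between any substrates, 12 had StiffY outlying high. All 12 act in the cell cycle or are known to be expressed with it: Top2a, Ccnb1, Rrm1, Diaph3, Rrm2, Pclaf, Prc1, Tk1, Mki67, Tpx2, Cdkn3 and Racgap1. Ccnb1, the mitotic cyclin B1, was at 65.6 and 53.8 CPM on SoftY, 101, 111 and 107 CPM on StiffY, 66.8, 61.7 and 67.4 CPM on SoftA, and 72.6, 66.8 and 70.1 CPM on StiffA. StiffY was far above and the others lay together (interaction -0.73 ± 0.19, adjusted p = 0.187). Mki67, the proliferation antigen Ki-67, was at 43.3 and 36.7 CPM on SoftY, 67.1, 67.8 and 81.7 CPM on StiffY, 33.4, 38.5 and 41.3 CPM on SoftA, and 45.1, 45.0 and 55.6 CPM on StiffA. It rose with stiffness on young matrix by 0.84 ± 0.17 (adjusted p = 0.0155), and the interaction of -0.47 ± 0.24 did not pass the test (adjusted p = 0.568).

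Promoter windows of these genes, 250 bases before to 50 bases after the annotated start (RefSeq, GRCm38.p6), were searched on both strands for TTTGAA, the core of the cell cycle homology region (CHR) through which late cell cycle genes are repressed in resting cells. 11 of the 12 genes had a window, and 6 of their 12 windows held the motif (50%), compared with 17.9% of 32851 windows in all. Those of Top2a (chr11:99024140-99024439, minus strand) and Mki67 (chr7:135716330-135716629, minus strand) are shown because each held 2 matches, in capitals.
Top2a: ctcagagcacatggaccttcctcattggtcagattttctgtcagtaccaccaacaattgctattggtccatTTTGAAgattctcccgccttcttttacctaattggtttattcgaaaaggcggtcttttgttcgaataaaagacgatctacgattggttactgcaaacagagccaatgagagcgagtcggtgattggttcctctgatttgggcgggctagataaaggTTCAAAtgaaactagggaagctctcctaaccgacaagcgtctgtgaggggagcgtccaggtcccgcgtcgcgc
Mki67: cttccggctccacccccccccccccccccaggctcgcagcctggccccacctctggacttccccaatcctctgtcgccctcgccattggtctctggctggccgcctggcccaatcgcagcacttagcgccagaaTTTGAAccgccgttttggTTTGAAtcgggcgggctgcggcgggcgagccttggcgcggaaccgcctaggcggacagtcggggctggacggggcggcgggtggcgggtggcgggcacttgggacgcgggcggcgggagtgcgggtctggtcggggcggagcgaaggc
A match describes the letters of the window and is not evidence of binding. The coordinates belong to this older build and not to mm39, the build of the counts.

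Interferon-stimulated genes were low on SoftA. Of 33 genes tested 31 had their lowest mean there (22.5% of all genes did), 10 were lower on SoftA than on SoftY (0.755% of all genes were), 5 rose with stiffness on young matrix (0.811%), and 6 rose with stiffness on aged matrix (0.0482%). The median change with stiffness was 0.29 on young matrix and 0.85 on aged matrix. The median interaction was 0.52 with 29 of 33 values positive and none called, and in the fit over 23 libraries Irf7 was called. On aged matrix these 6 genes, Irf7, Ifit1, Stat2, Oas1a, Ifit3b and Ifit3, made up all the genes that rose with stiffness, while Sfrp2 and Ccl2 fell (0.0161%).

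Ifit1, an antiviral protein that binds foreign RNA, was at 86.9 and 79.0 CPM on SoftY, 199, 120 and 146 CPM on StiffY, 32.6, 32.3 and 32.9 CPM on SoftA, and 105, 97.2 and 125 CPM on StiffA. SoftA lay lowest with hardly any spread, SoftY was next, and the 2 stiff groups lay above with a small overlap. Ifit1 rose with stiffness by 0.90 ± 0.18 on young matrix (adjusted p = 0.0151) and by 1.74 ± 0.19 on aged matrix (adjusted p = 0.00143), and the difference of these, the interaction, was 0.84 ± 0.26 (adjusted p = 0.301). Irf7, the interferon-induced transcription factor that amplifies interferon production, was at 73.4 and 76.4 CPM on SoftY, 86.0, 70.5 and 85.8 CPM on StiffY, 26.6, 26.1 and 40.6 CPM on SoftA, and 68.9, 55.9 and 79.2 CPM on StiffA. SoftA alone was low, and the other 3 groups overlapped (interaction 1.05 ± 0.27, adjusted p = 0.176). In the fit over 23 libraries the interaction of Irf7 in young cells was 1.06 ± 0.24 and passed the test (adjusted p = 0.0383). Stat2, a signal transducer of the type I interferon receptor, was at 155 and 154 CPM on SoftY, 164 to 211 CPM on StiffY, 101 to 109 CPM on SoftA and 160 to 177 CPM on StiffA. Reads of Ifit3 and Ifit3b, near-identical copies, may have been shared between them.

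Among the 316 genes that differed between any substrates, 19 had SoftA outlying low. They held 13 genes of the interferon list, and the others included Iigp1, Apol9a, Rnf213 and Samd9l, which were not on the list. Promoter windows were searched on both strands for TTTC followed by any pair of bases and a further TTTC, the core of the interferon-stimulated response element (ISRE) of interferon-induced genes. 15 of the 19 genes had a window, and 9 of their 19 windows held the motif (47.4%), against 3.44% of all windows. These belonged to Apol9a, Gbp3, Gbp7, Ifit1, Ifit3b, Igtp, Oas1a and Stat2. Those of Ifit1 (chr19:34640639-34640938, plus strand) and Oas1a (chr5:120907476-120907775, minus strand) are shown because each held 2 matches, in capitals, which overlap in Oas1a.
Ifit1: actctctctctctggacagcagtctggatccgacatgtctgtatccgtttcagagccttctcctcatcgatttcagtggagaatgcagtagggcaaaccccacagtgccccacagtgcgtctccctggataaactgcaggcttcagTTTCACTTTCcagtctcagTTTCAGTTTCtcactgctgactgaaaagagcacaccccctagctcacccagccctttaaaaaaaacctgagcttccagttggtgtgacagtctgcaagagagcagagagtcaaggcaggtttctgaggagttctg
Oas1a: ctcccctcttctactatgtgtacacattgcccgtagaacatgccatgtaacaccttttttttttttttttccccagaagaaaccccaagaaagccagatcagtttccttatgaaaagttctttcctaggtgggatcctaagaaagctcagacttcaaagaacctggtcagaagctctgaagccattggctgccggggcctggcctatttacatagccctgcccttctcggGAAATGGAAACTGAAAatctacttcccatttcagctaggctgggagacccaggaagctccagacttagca
For comparison, the genes called for the interaction with SoftY outlying high held the ISRE core in 3.85% of 26 windows and TTTGAA in 15.4%. The core GGAATG of sites for TEAD, the partner of YAP and TAZ, was in 7.69% of these windows, in 13.3% of the windows of SoftY-low genes and in 14.7% of all windows.

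StiffA, the substrate that combined both changes, was rarely outlying among the 316 genes that differed between any substrates. Sulf1 and Sqle stood alone at the top there and Pik3ip1 at the bottom. Sulf1, a sulfatase that edits heparan sulfate, was at 260 and 265 CPM on SoftY, 301 to 312 CPM on StiffY, 295 to 347 CPM on SoftA and 391 to 412 CPM on StiffA. Its interaction was 0.11 ± 0.14 (adjusted p = 0.861). Pik3ip1, an inhibitor of PI3 kinase, was at 29.5 and 33.7 CPM on SoftY, 17.7 to 22.1 CPM on StiffY, 19.7 to 25.3 CPM on SoftA and 9.95 to 13.7 CPM on StiffA, with an interaction of -0.29 ± 0.31 (adjusted p = 0.824).

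Additivity was asked of the 316 genes by the interval of the interaction. It lay within 1.5-fold in either direction, at 95% confidence, for 44 genes (13.9%), and for 150 genes at a margin of 2-fold. For the other genes the interval reached past the margin, which does not show that the changes failed to add. Of the 44 genes 5 were also called for the mean effect of stiffness (2.14% of all genes, 0.747% higher and 1.4% lower) and of matrix (1.27%, 0.835% higher and 0.434% lower): Lurap1l, Map6, Fbln2, Pkm and Mmp3. Fbln2, an elastic-fibre protein of the fibulin family, was at 1625 and 1781 CPM on SoftY, 2110, 2151 and 2266 CPM on StiffY, 2688, 2513 and 2785 CPM on SoftA, and 2730, 2925 and 3116 CPM on StiffA. Levels climbed in steps, with overlap only between SoftA and StiffA, and the interaction was -0.22 ± 0.12 (95% interval -0.47 to 0.04).

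Map6, a protein that stabilises microtubules, was at 147 and 135 CPM on SoftY, 220 to 250 CPM on StiffY, 187 to 209 CPM on SoftA and 295 to 296 CPM on StiffA, with an interval of -0.48 to 0.17. Lurap1l was at 163 and 134 CPM on SoftY, 195 to 210 CPM on StiffY, 213 to 263 CPM on SoftA and 310 to 323 CPM on StiffA, with an interval of -0.37 to 0.33. For both genes StiffA was above every other library. Mmp3, the matrix protease stromelysin 1, went the other way, from 8153 and 7127 CPM on SoftY to 5448 to 5657 CPM on StiffA, with 5872 to 6110 CPM on StiffY and 5623 to 5879 CPM on SoftA. Its interval of 0.07 to 0.50 lay within the margin and above 0.

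Seen as single contrasts, stiffness changed 309 genes on young matrix (101 higher, 208 lower) and 8 on aged matrix (0.0642%). Aged matrix changed 187 genes on the soft gel (1.5%, 93 higher and 94 lower) and 7 on the stiff gel (0.0562%). On the stiff gel Timp3, an inhibitor of matrix proteases, was higher on aged matrix by 0.83 ± 0.12 (adjusted p = 0.0312), as were Igf1, Enpp2, Denn2b, Col12a1 and Col28a1, and Top2a was lower. Timp3 was at 616 and 743 CPM on SoftY, 1117, 1124 and 1022 CPM on StiffY, 1977, 1683 and 2296 CPM on SoftA, and 1693, 1864 and 2238 CPM on StiffA. It was split by matrix, with no overlap between young and aged matrix on either gel. The larger counts share the SoftY group, so that these comparisons are not independent of each other, and a difference in counts is not a test of a difference between effects.

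These counts rested on single libraries. For stiffness on young matrix the count was 115 or 173 without SoftY replicate 1 or 2, 155, 153 or 180 without StiffY replicate 1, 2 or 3, and 526 without SoftA replicate 3. For matrix age on the soft gel it was 58 or 80 without SoftY replicate 1 or 2, 97 without SoftA replicate 1 and 124 without StiffA replicate 2. For stiffness on aged matrix it lay between 1 (without SoftA replicate 1) and 10 (without SoftA replicate 3), and was 5, 3, 3, 4, 3, 3, 2 and 3 without SoftY replicates 1 and 2, StiffY replicates 1 to 3, SoftA replicate 2 and StiffA replicates 1 and 3. For matrix age on the stiff gel it was 30 without SoftA replicate 3, 4 without either SoftY library, 1, 1 and 2 without StiffY replicates 1, 2 and 3, 3 without SoftA replicate 1, and 3, 2 and 2 without StiffA replicates 1, 2 and 3. The call in aged cells described next rose from 3 to 6 genes without the young-cell library SoftA replicate 3.

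In aged cells on the same 4 substrates the interaction was below 0 for most of these genes, but few were called. In the fit over 23 libraries and 12841 genes the interaction in aged cells was called for 3 genes, all negative (0.0234%): Apoe, Htra3 and Fgl2, which were all among the 33 genes of young cells. Over the 32 positive genes of young cells the interaction in aged cells had a median of -0.47 and was negative in 29. The median over all genes was 0.00. Several of the negative values lay within 1 SE of 0, such as -0.02 ± 0.12 for Pdgfra and -0.04 ± 0.12 for Matn2. The genes were measured in the same libraries, so that the count of signs is not a test. The values of aged cells played no part in the choice of these genes. Enpp2 had means of 47.3 ± 10.5 CPM on SoftY, 49.6 ± 9.84 CPM on StiffY, 19.6 ± 2.93 CPM on SoftA and 9.12 ± 3.03 CPM on StiffA in aged cells (SD, n = 3 each). The means on SoftY and StiffY differed by less than their SD, and young cells on SoftY had a mean of 304 ± 14.9 CPM (n = 2).

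Apoe in aged cells had means of 1480 ± 85.7 CPM on SoftY, 1552 ± 164 CPM on StiffY, 793 ± 81.8 CPM on SoftA and 458 ± 54.4 CPM on StiffA (interaction -0.86 ± 0.13, adjusted p = 0.00455). Htra3, a secreted serine protease, had means of 81.9 ± 11.4, 105 ± 14.4, 76.8 ± 2.60 and 39.3 ± 4.33 CPM on these substrates in the same order (-1.31 ± 0.21, adjusted p = 0.00455), and Fgl2, a fibrinogen-like protein, 184 ± 19.6, 213 ± 33.3, 82.3 ± 3.56 and 46.6 ± 3.29 CPM (-1.03 ± 0.16, adjusted p = 0.00455). In aged cells all 3 genes had their lowest mean on StiffA. In young cells the lowest mean was on StiffY, but for Apoe and Fgl2 it was close to that on StiffA. Apoe had means of 845 CPM on StiffY and 871 CPM on StiffA, and Fgl2 221 and 224 CPM, with overlapping libraries. Htra3 had 39.1 and 63.3 CPM without overlap, and that difference did not pass the test (adjusted p = 0.211).

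The difference between the interactions of young and aged cells was called for 57 genes (0.444%), 50 positive (0.389%) and 7 negative (0.0545%), and for 28 of the 33 genes, all positive. Since young cells chose the 33 genes and enter this difference, the 28 are a description. The difference was not called for Mmp12, Sned1, Top2a, Col6a3 and Igf1. Igf1 had means of 166 ± 14.5 CPM on SoftY, 125 ± 11.1 CPM on StiffY, 172 ± 12.7 CPM on SoftA and 171 ± 4.36 CPM on StiffA in aged cells, again lowest on StiffY, with an interaction of 0.40 ± 0.16 that did not pass the test (adjusted p = 0.835). Mmp12 had an interaction of 1.22 ± 0.39 in aged cells (adjusted p = 0.668), next to 1.60 ± 0.29 in young cells from the same fit.

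**Figure D5:**
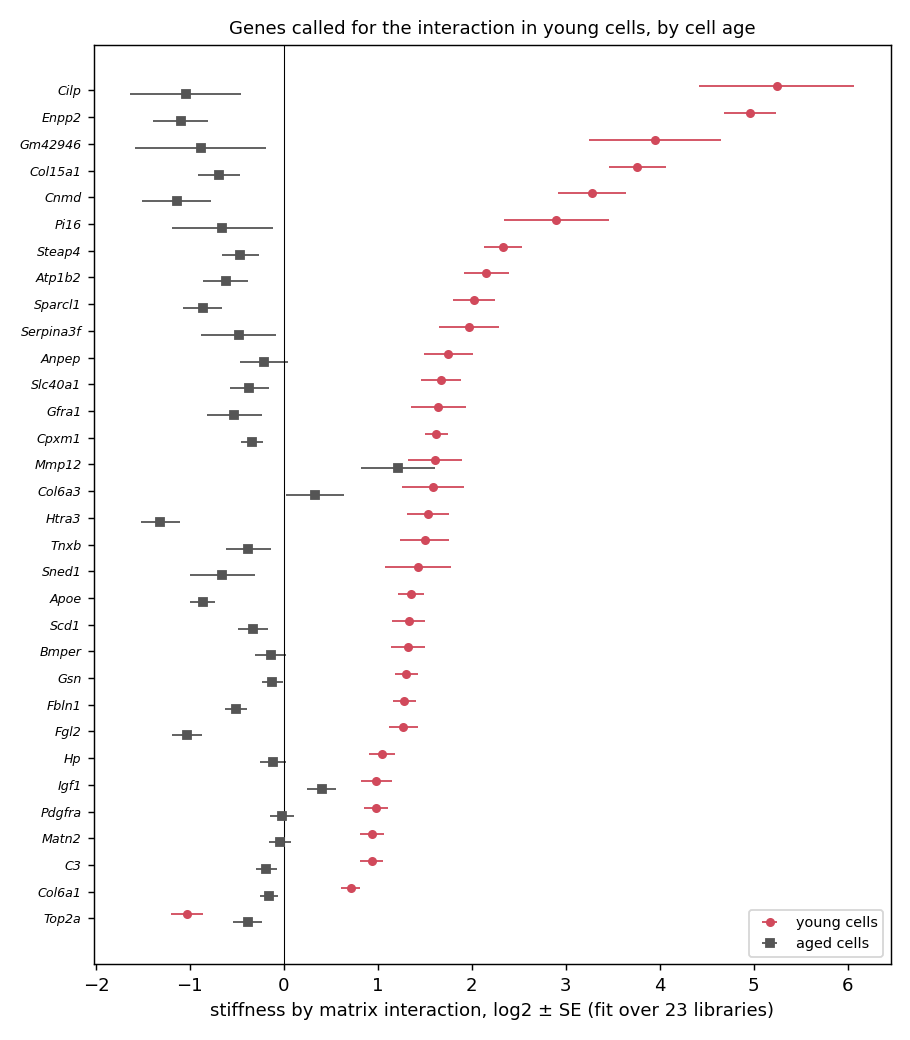
Stiffness by matrix interaction (x axis, log2 ± SE, from 1 fit over 23 libraries) for 32 of the 33 genes called in young cells (y axis), in young cells (red circles) and aged cells (grey squares). Aged cells lie above 0 for Mmp12, Col6a3 and Igf1 and below 0 for the other genes shown.

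The difference between the interactions of young and aged cells was called for 2 of the 33 interferon-stimulated genes, both positive. Of all genes 0.444% were called, 0.389% positive. Ifit1 in aged cells had means of 183 ± 52.0 CPM on SoftY and 46.5 ± 2.7 CPM on StiffY. On SoftA its mean was 142 ± 30.2 CPM and on StiffA 43.3 ± 8.43 CPM. In aged cells the soft gels were thus above the stiff gels on either matrix. In young cells Ifit1 rose with stiffness on either matrix and was lowest on SoftA. The 2 genes called for the difference were Irf7 with 1.94 ± 0.34 (adjusted p = 0.00336) and Oas1a with 1.85 ± 0.41 (adjusted p = 0.0368). For Ifit1 the difference of 0.58 ± 0.42 did not pass the test (adjusted p = 0.857).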

How the data were processed

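RNA was measured in 29 samples, from 20 ng of input each with a low-input NEBNext kit (per the labels' protocols). The submitters' processing notes name STAR 2.7.8a and mm39. The deposited values are the raw counts of 55357 genes, and the table also gives the gene coordinates printed here. The sources used here do not give the counting version, annotation release or strand setting, so that reads of overlapping or antisense genes cannot be told apart.

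The 11 libraries of young cultured cells were fitted alone with edgeR 4.0.16 under R 4.3.3: filterByExpr by group, TMM factors, the quasi-likelihood F test, and Benjamini-Hochberg adjustment over 12453 genes with calls at 0.05. An SE is the size of the log2 change divided by the root of its F value. CPM are counts per library total after TMM scaling. Aged cells and the difference between ages used all 23 cultured libraries. Counts of replicates differed by more than sampling noise in every pair. Alternatives used DESeq2 1.42.0, limma 3.58.1 (voom), other scaling factors and filters, replicate blocks and each library left out. The scripts were tested on simulated data. The samples, the 44 gene lists (787 genes, 782 in the table) and the rules were chosen with earlier results of these data known.

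The rule for naming genes took, among those called for the interaction at a mean of at least 10 CPM, the 10 largest in each direction, up to 3 per shape by p, up to 4 called members per list or otherwise the 2 with the highest level, up to 8 additive genes, and Acta2, Postn, Col1a1 and Ccn2. Cell type markers were printed from their lists. Cilp, Cpxm1, Bmper, Scd1 and Gm42946 have values because they were called both for the interaction and for its difference between ages. The other genes with printed values were chosen after their values were seen: Apoe, Fgl2, Mmp12, Tnxb, Matn2, Sned1, Car3, Col6a2, Lum, Dcn, Ankrd1, Mdm2, Cdkn1a, Ccnb1, Mki67, Ifit1, Irf7, Oas1a, Sulf1, Pik3ip1 and Timp3. Further genes are named only as members of a count. A few genes that enter the fits and counts are not reported here by name. List members with values near the median of their list are not named. Promoter windows are RefSeq sequence of GRCm38.p6, matched by symbol.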

Additional observations from a re-analysis of the deposited data

Results flagged for a closer look

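For 28 genes the stiffness by matrix interaction differed between young and aged cells by a test of the difference itself (edgeR's quasi-likelihood test over 23 libraries, adjusted p under 0.05), and the size of that difference is given here on the log2 scale for 27 of them. Among genes of the matrix and its surroundings it was 4.45 for Col15a1, 4.42 for Cnmd, 2.89 for Sparcl1, 6.29 for Cilp, 1.79 for Fbln1, 0.87 for Col6a1, 1.88 for Tnxb, 0.98 for Matn2 and 1.46 for Bmper. Among secreted and surface enzymes and inhibitors it was 6.06 for Enpp2, 2.79 for Steap4, 2.45 for Serpina3f, 1.97 for Anpep, 2.85 for Htra3 and 1.96 for Cpxm1. For genes of the resident fibroblast state it was 1.43 for Gsn, 1.00 for Pdgfra and 3.55 for Pi16, and for the acute phase genes 1.15 for Hp and 1.12 for C3. For genes of lipid handling and transport it was 2.22 for Apoe, 1.65 for Scd1, 2.04 for Slc40a1 and 2.77 for Atp1b2, and for the others 2.17 for Gfra1, 2.30 for Fgl2 and 4.83 for Gm42946. The values of Cilp and Gm42946 rest on few reads, with SEs of 1.02 and 1.00. On StiffY in young cells Cilp was at 1.61, 0 and 1.63 CPM and Gm42946 at 0.40, 3.49 and 0.82 CPM. Their calls for the interaction in young cells were lost in 3 and 8 of the 21 alternatives. All 28 are positive, and the young libraries that chose these genes also enter the difference, so that the 28 are a description.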

How the results depend on the processing

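With 2 libraries on SoftY, and 11.9 to 30.8 counts behind 10 CPM, depth limits what could be detected for genes below that level. The interaction was called for 33 genes, and for 79 with all 23 libraries in 1 fit, 132 without a filter on low counts, 41 with DESeq2 and 41 with voom, and 20 to 50 with a library left out. For any substrate difference (316 genes) these were 722 and 728 for the first 2 settings and 135 to 550 with a library left out. For stiffness on young matrix (309) they were 586, 490 and 115 to 526, and for matrix age on the soft gel (187) 367, 371 and 58 to 216. For stiffness on aged matrix (8) they were 27, 50 and 1 to 10, with 18 by DESeq2. For matrix age on the stiff gel (7) they were 45, 52 and 1 to 30, with 23 by DESeq2, 13 by voom, 4 with RLE factors, 3 with library totals and 4 with a filter at 10 CPM. In aged cells the interaction (3) was called for 11 genes by DESeq2, 23 without a filter (13 positive, 10 negative) and 3 to 6 with a library left out. The difference between ages (57) ranged from 43 to 72 with a library left out. The count of additive genes (44) was 150 at a margin of 2-fold. Where a library was left out of SoftY, the lone library was assumed to vary like the other groups. Without SoftY replicate 2, SoftA replicate 3 and StiffA replicate 3, chosen after seeing the data, the counts were 270 for the interaction, 1017 for any difference, 901 and 35 for stiffness on young and aged matrix, and 350 and 314 for matrix age on the soft and stiff gel. The cause of these differences was not tested.

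The labels do not say what a replicate number shares. Neither numbering had every pair of libraries correlated over 0.1, and the main fit did not treat the samples as paired. That was a choice, and the calls depended on it, as given below. Deviations from the group means of libraries with the same title number correlated between -0.283 and 0.4 over 15 pairs, 8 of them over 0.1, and of those with the same number in the library name between -0.0125 and 0.4, with 11 of 15 over 0.1. A shared origin of libraries with the same library-name number was not tested otherwise. Of the 11 libraries 5 and 7 correlated best with their own number. With the title number as a replicate block the interaction was called for 42 genes, stiffness on aged matrix for 18 and matrix age on the stiff gel for 21. With the library-name number as a replicate block it was called for 162 genes (98 positive, 64 negative, against 32 and 1 without a block), any difference for 779, stiffness on young and aged matrix for 673 and 29, matrix age on the soft and stiff gel for 466 and 46, and the interaction in aged cells for 5.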
